A study of Mus musculus with 8 samples.

Results

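Wnt4, Wnt9a, Tcf7 and Lef1 were followed across cultured muscle cells of 2 Cre lineages. They were taken by name as 4 of the 5457 genes in the deposited expression table, not by a threshold on a measured value. The choice, like that of the gene lists used below, was made with earlier results of these data known. Of the 4, 2 are Wnt ligands and 2 are nuclear factors of the same pathway. Wnt proteins are secreted, lipid-modified signals that bind Frizzled receptors with the co-receptors Lrp5 and Lrp6. In the canonical branch this spares beta-catenin from degradation, and beta-catenin enters the nucleus and joins the DNA-binding factors of the Tcf/Lef family, which turn target genes on with it and keep them off without it. In muscle the pathway is known for its parts in the formation of embryonic muscle and in the proliferation and differentiation of myogenic progenitors after injury.

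Adult C57BL/6 mice were the source of all cells, which were sorted for tdTomato out of digested hind limb muscle and cultured on Matrigel before their RNA was sequenced. The genotypes were Tw2-CreERT2/+;R26-tdTO+ for the Tw2 groups and Pax7-CreERT2/+;R26-tdTO+ for the Pax7 groups. Both carry a Cre recombinase that tamoxifen activates, driven from Twist2 (Tw2 in the labels) or from Pax7, and a red reporter that Cre switches on permanently, so a labelled culture holds whatever cells had used that gene at the time of tamoxifen and their descendants. All mice received tamoxifen on alternate days, 3 times in all and 10 days before harvest, so every group carried the driver, the reporter and the drug. The 8 libraries form 4 groups of 2, named Tw2_48, Tw2_GM, Pax7_48 and Pax7_GM after their titles. GM is taken here as growth medium, which the labels describe as Ham's F10 with 20% fetal bovine serum. The labels also describe a differentiation medium with 2% horse serum and bFGF, but not which medium the 48 cultures had. The Tw2 titles give 48 in hours and the Pax7 titles give no unit. The sex of the mice, and whether 2 libraries of a group came from separate mice or cultures, are not stated, so p-values measure only the spread between libraries, which may be technical.

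The deposited values are group means in CPM, the reads of a gene scaled to the size of the library, and each mean was split into the whole reads of its 2 libraries, which was possible without ambiguity for 5452 genes, the 4 members included. Implied library sizes ran from 5.18 to 13.7 M reads. A level of 3 reads, about the 1-sided 95% upper limit for a count of 0, came to 0.218 to 0.579 CPM. The 2 libraries of a group correlated at r = 0.994 to 0.996 across genes, except those of Pax7_GM at r = 0.962. Each gene of the table differs from Tw2_GM by at least 1 on the deposited log2 scale in at least 1 group, so large culture and lineage differences are the rule in it. Tcf7 met this limit through Tw2_48 alone, at 1.29, beside 0.14 in Pax7_48 and 0.54 in Pax7_GM. Its rise in Tw2 cells was therefore a condition of its being listed. All 5452 solved genes were also at 10 CPM or more in at least 4 libraries. Among the Wnt pathway genes, Wnt4, Fzd9 and Daam2 passed that floor through the 48 libraries alone. Lef1, Lgr6, Wnt5a, Apcdd1, Fosl1, Tcf7l2 and Nrcam passed it through the GM libraries alone. Of the markers, Itgam passed through the 48 libraries alone and Rgs5 through the GM libraries alone. All of these had to differ between the cultures to be listed, which favoured their calls in the culture comparisons. The fibroblast marker Prrx1 passed the floor through the Pax7 libraries alone, so it had to differ between the lineages to be listed. The satellite cell gene Pax7 was at 108 to 118 CPM in all 4 GM libraries and at 9.58 to 13.0 CPM in all 4 of the 48 libraries, Twist2 was not analysed here, and endothelial, glial and adipocyte marker lists had no gene among those analysed. In bulk RNA, fewer cells of a type and less RNA per cell cannot be told apart.

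The regions around the start sites of the 4 genes are shown because the ligands and Lef1 moved in opposite directions between the cultures. Each runs from 250 bases before to 50 bases after the RefSeq start (GRCm38.p6) and is written 5′ to 3′ on the gene's own strand. Capitals mark the E-box CANNTG, read identically on both strands, which is the core motif of basic helix-loop-helix factors such as Twist2 and the myogenic regulators.
Wnt4, chr4:137277385-137277684, plus strand: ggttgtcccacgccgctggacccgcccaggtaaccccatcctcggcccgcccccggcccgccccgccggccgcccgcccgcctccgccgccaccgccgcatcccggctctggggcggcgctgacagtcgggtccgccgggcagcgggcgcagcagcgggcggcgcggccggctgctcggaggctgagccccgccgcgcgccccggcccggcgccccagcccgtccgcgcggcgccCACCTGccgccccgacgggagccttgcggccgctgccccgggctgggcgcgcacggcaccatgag
Wnt9a, chr11:59306680-59306979, plus strand: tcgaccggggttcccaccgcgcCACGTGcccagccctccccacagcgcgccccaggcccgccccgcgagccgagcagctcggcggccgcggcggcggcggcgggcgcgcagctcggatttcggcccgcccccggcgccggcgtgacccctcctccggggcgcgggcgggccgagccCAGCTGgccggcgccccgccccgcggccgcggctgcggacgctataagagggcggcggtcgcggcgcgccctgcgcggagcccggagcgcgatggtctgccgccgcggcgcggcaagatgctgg
Tcf7, chr11:52282546-52282845, minus strand: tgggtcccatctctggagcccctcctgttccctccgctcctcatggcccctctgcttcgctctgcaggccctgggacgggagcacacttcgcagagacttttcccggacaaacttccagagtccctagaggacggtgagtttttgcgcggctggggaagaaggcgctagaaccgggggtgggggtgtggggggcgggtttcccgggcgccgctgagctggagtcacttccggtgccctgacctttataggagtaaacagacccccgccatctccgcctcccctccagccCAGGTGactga
Lef1, chr3:131110073-131110372, plus strand: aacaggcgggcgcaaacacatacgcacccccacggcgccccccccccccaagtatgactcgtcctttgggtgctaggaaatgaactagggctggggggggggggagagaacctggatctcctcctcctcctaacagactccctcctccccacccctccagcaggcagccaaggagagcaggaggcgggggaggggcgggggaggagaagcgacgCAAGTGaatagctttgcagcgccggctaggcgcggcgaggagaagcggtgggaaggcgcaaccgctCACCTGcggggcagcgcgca
The Wnt4 window holds 1 E-box, CACCTG, at base -15 from the RefSeq start. This site lies inside the annotated Wnt4 gene, which begins further upstream, at 137277489. The Wnt9a window holds 2, CACGTG at -228 and CAGCTG at -74. The Tcf7 window holds CAGGTG at 40, inside the transcript, and the Lef1 window holds CAAGTG at -36 and CACCTG at 31. An E-box is common in windows of this length: 72.3% of the 32851 RefSeq promoters hold at least 1, with a mean of 1.39. The letters of the Tcf/Lef motif (CTTTG followed by AA, AT, TA or TT, both strands) are in none of the 4 windows and in 16.9% of all promoters. GC content was 84.3% in the Wnt4 window and 83.3% in that of Wnt9a, and 64.3% and 67.3% in those of Tcf7 and Lef1. RefSeq gives 2 starts for Tcf7 and 4 for Lef1, of which the one nearest the annotated principal transcript is shown.

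Between the cultures, both ligands were far higher at 48 than in GM in both lineages, while Lef1 was far lower. Tcf7 rose in Tw2 cells, by 1.29 ± 0.15 on the log2 scale, and had a small negative change in Pax7 cells that was also called under 4 of 7 other settings and without 2 of the 8 libraries. These changes, and how they differ between the lineages, are given gene by gene below, on the log2(CPM + 1) scale with standard errors and with adjusted p-values from limma over all 5452 genes. All 4 members were called at an adjusted p under 0.05 in Tw2_48 against Tw2_GM and all 4 in Pax7_48 against Pax7_GM. The libraries of the 48 and GM cultures did not overlap for any member in either lineage. For Wnt4 and Lef1 in both lineages, and for Tcf7 in Tw2 cells, a difference between the cultures was a condition of being listed. Of all genes tested 84.1% and 79.2% were called in these comparisons and 95.0% and 85.0% did not overlap, so a call by itself does not set the members apart, and their sizes are what the values below describe.

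**Figure D1:**
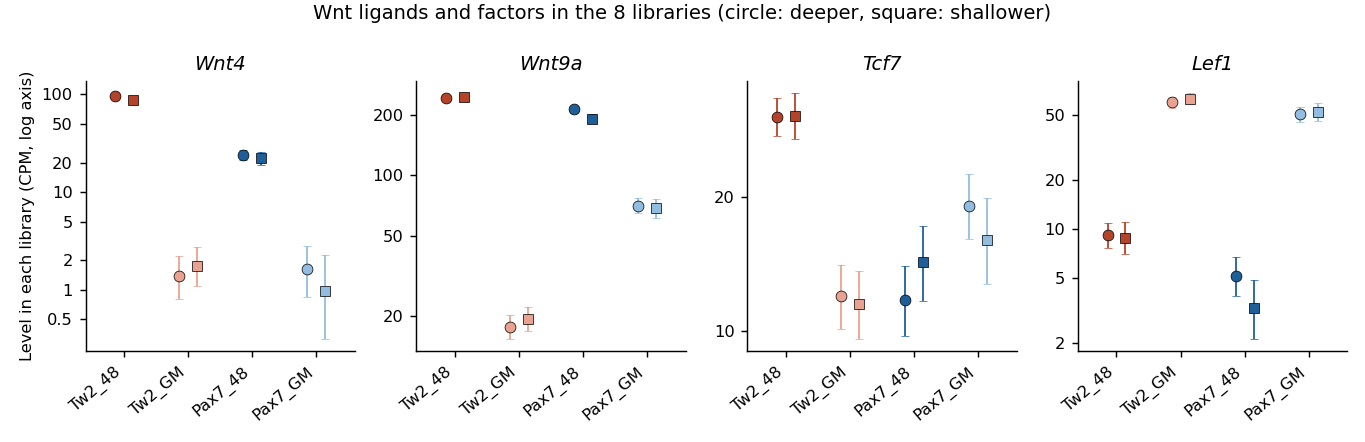
Level of each member in the 8 libraries, in CPM on a log axis with a separate range for each gene; circles are the deeper and squares the shallower library of a group, and bars are exact 95% Poisson intervals of the read count. Wnt4 and Wnt9a stand higher and Lef1 stands lower at 48 than in GM in both lineages, while Tcf7 is highest in Tw2_48, at 30.1 and 30.3 CPM.

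Wnt4 is a ligand with roles in kidney, gonad and limb development, and in mouse muscle it is known as a signal from fibres that holds satellite cells quiescent. The gene lies on chromosome 4 (GRCm38, 137277489 to 137299726, plus strand), and its exons overlap those of no other annotated gene. It was at 97.3 and 87.2 CPM in the deeper and shallower Tw2_48 libraries, against 1.40 and 1.77 CPM in Tw2_GM. In Pax7 cells it was at 24.1 and 22.3 CPM in Pax7_48, against 1.63 and 0.965 CPM in Pax7_GM. The order of the groups was thus Tw2_48, then Pax7_48, then the GM groups, whose libraries overlapped and rested on 17 and 20 reads in Tw2_GM and on 12 and 5 reads in Pax7_GM. The level in Tw2_48 was 58.2 times that in Tw2_GM (log2 5.17 ± 0.17, adjusted p = 4.08e-08, limma), and the level in Pax7_48 was 17.9 times that in Pax7_GM (log2 3.41 ± 0.17, adjusted p = 6.03e-07, limma). The change was larger in Tw2 cells by 1.76 ± 0.24 on the log2 scale (adjusted p = 0.00246, limma). That difference kept its direction but not its call under quantile normalization, where it was 0.68 with an adjusted p of 0.113, and it stayed called without any single library. Of all genes, 18.7% were called for such a difference, and 3 of the 4 members were. This background depended on the libraries, at 1021 genes with all 8, 1728 genes without the deeper Pax7_GM library, 3153 without the shallower one and 449 to 510 without any one of the others.

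Wnt9a is a ligand known from the development of joints and cartilage, where it restrains chondrocyte differentiation. It lies on chromosome 11 (59306928 to 59333552, plus strand), also with no overlapping exons. Wnt9a was the most abundant of the Wnt ligands analysed in all 8 libraries per kilobase of transcript. It was at 243 and 246 CPM in the Tw2_48 libraries, against 17.6 and 19.3 CPM in Tw2_GM. In the other lineage it was at 213 and 191 CPM in Pax7_48, against 70.6 and 68.5 CPM in Pax7_GM. Both lineages thus ended close together at 48, from a GM level that was 3.77 times lower in Tw2 cells. Wnt9a rose by 3.66 ± 0.13 on the log2 scale in Tw2 cells (13.3-fold, adjusted p = 4.84e-08, limma) and by 1.52 ± 0.13 in Pax7 cells (2.91-fold, adjusted p = 9.26e-06, limma). Its difference between the lineages, 2.14 ± 0.18, was the largest of the 4 members (adjusted p = 0.000275, limma). It stayed called in all 15 alternative settings, with values from 1.81 to 2.56.

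Tcf7 encodes TCF-1, a Tcf/Lef factor known from T cell development and as a target of the pathway itself. The gene lies on chromosome 11 (52252371 to 52283014, minus strand), with no overlapping exons. It was at 30.1 and 30.3 CPM in the Tw2_48 libraries, against 11.99 and 11.5 CPM in Tw2_GM. Pax7 cells showed the opposite order, with 11.7 and 14.3 CPM in Pax7_48, against 19.1 and 16.0 CPM in Pax7_GM. Tw2_48 stood above every other library, and the Tw2_GM and Pax7_48 libraries were neighbours whose values overlapped. Tcf7 rose by 1.29 ± 0.15 on the log2 scale in Tw2 cells (2.57-fold, adjusted p = 4.83e-05, limma). Since Tcf7 was listed through this rise alone, the call and the difference between the lineages that includes it were favoured by the listing. In Pax7 cells the change was -0.41 ± 0.15 (adjusted p = 0.0315, limma). This Pax7 call was lost without any one of 6 libraries, namely both Tw2_48, both Tw2_GM and the deeper library of each Pax7 group, with adjusted p-values up to 0.206 and changes of -0.28 to -0.54 over all 8 omissions. It was also lost under size factors, quantile normalization and removal of the GC and length trend. The difference between the lineages was 1.70 ± 0.21 (adjusted p = 0.00142, limma) and stayed called in all 15 alternative settings, at 1.43 to 1.88.

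Lef1 encodes lymphoid enhancer-binding factor 1, the close relative of TCF-1 and itself a common target of beta-catenin. It lies on chromosome 3 (131110471 to 131224356, plus strand). The annotated antisense gene Gm43352 shares 1208 of its 8788 exonic bases, 13.7%, and since the strand handling of the libraries is not stated, reads of the pair cannot be told apart there. Lef1 was at 9.17 and 8.83 CPM in the Tw2_48 libraries, against 59.5 and 62.7 CPM in Tw2_GM. It was at 5.17 and 3.27 CPM in Pax7_48, against 50.3 and 51.9 CPM in Pax7_GM. All 4 GM libraries therefore lay above all 4 libraries of the 48 cultures. Lef1 fell by 2.63 ± 0.18 on the log2 scale in Tw2 cells, to a level 6.78 times lower (adjusted p = 1.93e-06, limma), and fell by 3.34 ± 0.18 in Pax7 cells, to a level 12.1 times lower (adjusted p = 7.96e-07, limma). The difference of 0.71 ± 0.25 between the lineages missed the threshold (adjusted p = 0.0857, limma). It passed without the deeper Pax7_48 library, at 0.97, or without either Pax7_GM library, at 0.73 without the deeper and 0.69 without the shallower, and also under size factors and quantile normalization, at 1.01 and 1.25.

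**Figure D2:**
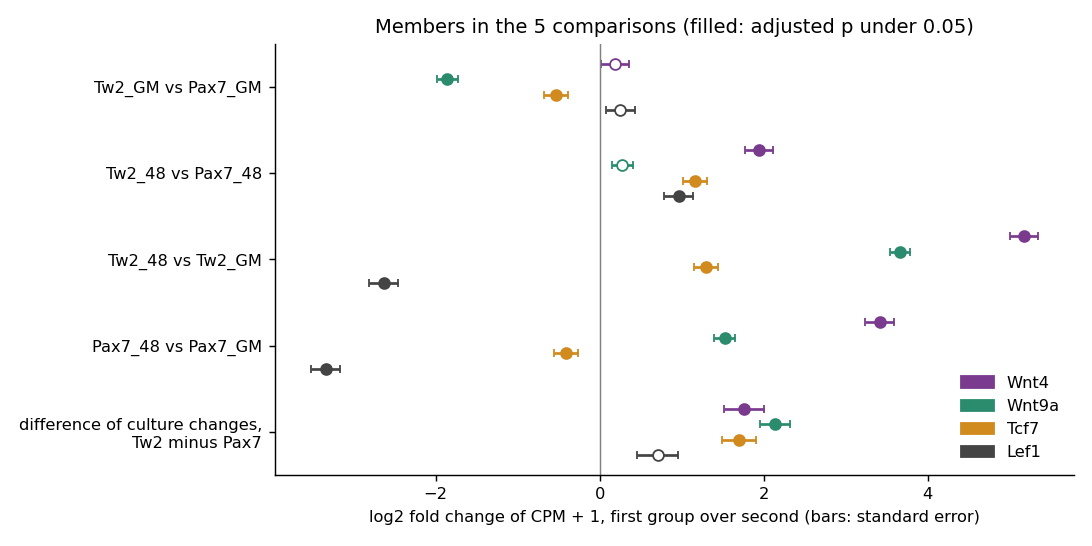
Log2 fold changes of CPM + 1 of the members in each comparison, with standard errors from limma as bars; colours are genes, filled points have an adjusted p under 0.05. The ligands lie right of 0 and Lef1 left of 0 in both culture comparisons, and Tcf7 is at 1.29 in Tw2 cells and -0.41 in Pax7 cells.

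Between the lineages, Wnt4, Tcf7 and Lef1 were higher in Tw2_48 than in Pax7_48. Wnt9a and Tcf7 were lower in Tw2_GM than in Pax7_GM. In the 48 cultures Wnt4 was 3.98 times higher in Tw2 cells (log2 1.94 ± 0.17, adjusted p = 0.000169, limma). Tcf7 was 2.32 times higher there (1.16 ± 0.15, adjusted p = 0.000704, limma) and Lef1 2.13 times higher (0.96 ± 0.18, adjusted p = 0.00265, limma). Wnt9a did not pass, at 0.28 ± 0.13 (adjusted p = 0.0855, limma), although its libraries did not overlap between the groups. The members called were 3 of 4, all higher, beside 65.4% of all genes called and 43.3% called higher, and the libraries of all 4 did not overlap, as for 89.6% of all genes. The genes called over the whole table in this comparison numbered 3568, with 2152 without the deeper Tw2_48 library and 2261 without the shallower Pax7_48 library. The Wnt9a difference passed at the same size without either of the Pax7_GM libraries (adjusted p = 0.0359, limma), which enter only through the shared spread.

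In growth medium 2 of the 4 members were called, both lower in Tw2_GM, beside 74.7% of all genes called (48.7% higher and 26.0% lower). The libraries of 3 of the 4, all but Wnt4, did not overlap, as for 87.8% of all genes. Wnt9a was lower in Tw2_GM, at -1.86 ± 0.13 on the log2 scale (adjusted p = 2.13e-05, limma), and was so under all 15 alternative settings. The Tcf7 difference was -0.54 ± 0.15 (adjusted p = 0.0102, limma), a level 1.49 times lower in Tw2_GM, with an adjusted p of 0.0597 without the shallower Tw2_GM library. Wnt4 was at 0.18 ± 0.17 and did not pass (adjusted p = 0.36, limma). It was 0.39 and passed (adjusted p = 0.0275, limma) without the deeper Pax7_GM library, and -0.03 without the shallower one. Lef1 was at 0.25 ± 0.18 (adjusted p = 0.227, limma), with libraries that did not overlap.

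Several lineage comparisons of the members depended on how libraries are scaled. In the deposited CPM the median gene of the table was higher in Tw2 cells by 0.34 in GM and by 0.27 at 48 on the log2 scale. Size factors computed from the listed genes moved these medians by -0.84 and -0.63, and quantile normalization by -0.48 and -0.29. The medians of the culture comparisons moved by 0.45 in Tw2 cells and 0.24 in Pax7 cells with size factors, and the culture changes of Wnt4, Wnt9a and Lef1, which are larger than these shifts, kept their call and direction. Of the calls, 65.2% were on the higher side in GM and 66.2% at 48 with the deposited scaling, against 32.1% and 26.4% once size factors were applied, 47.2% and 48.4% after quantile normalization, and 81.5% and 78.4% once a trend with GC content and length was removed. Relative to the median gene, Wnt9a remained lower in Tw2_GM and Wnt4 and Tcf7 higher in Tw2_48 under each of these. Lef1 at 48 kept its sign and missed the threshold with size factors, at 0.41 (adjusted p = 0.0733, limma). Lef1 in GM, Wnt4 in GM and Wnt9a at 48 took a negative sign with size factors, at -0.60, -0.31 and -0.38, and Tcf7 in GM took a positive one, 0.20, with the GC and length trend removed.

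**Figure D3:**
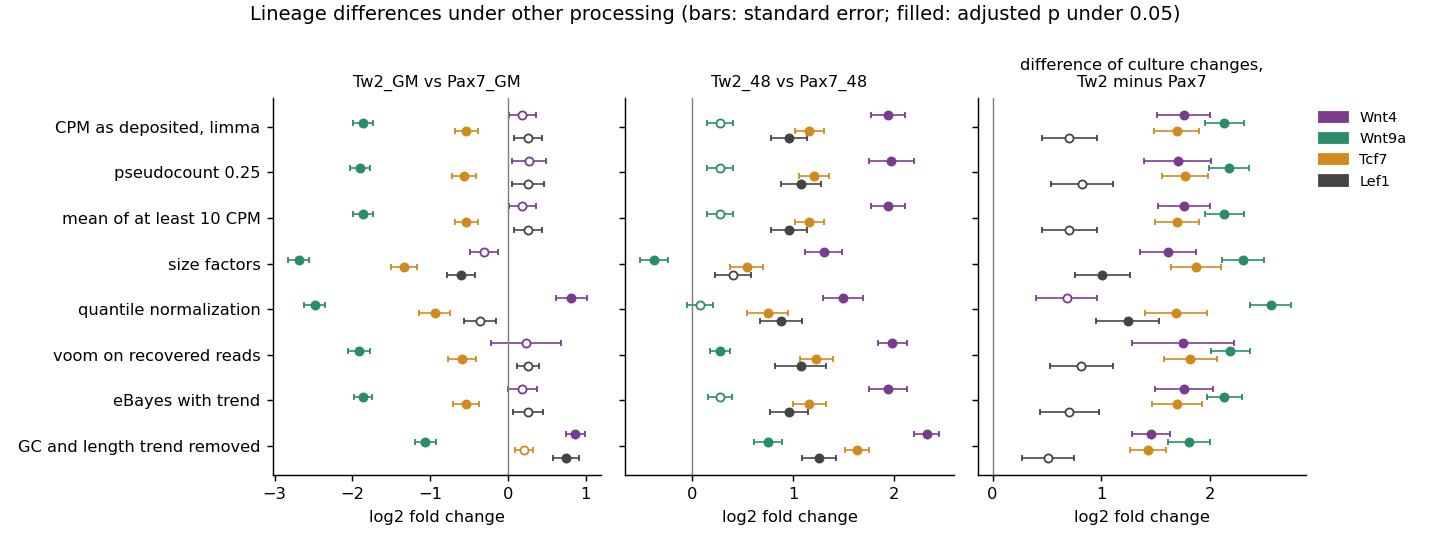
Log2 fold changes of the members in both lineage comparisons and in the difference of culture changes, under the deposited scaling and 7 other settings; bars are standard errors, colours are genes and filled points have an adjusted p under 0.05. All 4 differences of culture changes lie right of 0 under every setting shown, whereas Wnt4, Tcf7 and Lef1 in GM and Wnt9a at 48 lie on both sides.

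The makeup of the Tcf/Lef family within a library does not change when all its genes are scaled by the same factor, as with size factors. Quantile normalization and removal of the GC and length trend move genes of a library unequally, and the makeup was not computed under them. Levels were divided by transcript length for this, and each factor was expressed as a percentage of the summed CPM per kilobase of Tcf7, Lef1, Tcf7l1 and Tcf7l2. Tcf7l1 encodes TCF-3, often a repressor in stem cells, and Tcf7l2 encodes TCF-4. The family sum was 19.7 and 19.0 CPM per kilobase in Tw2_48, against 50.4 and 48.1 in Tw2_GM, and 13.4 and 14.2 in Pax7_48, against 47.8 and 44.8 in Pax7_GM. In the deposited CPM, total Tcf/Lef message was thus lower at 48 in both lineages. Unlike the shares, this sum changes with the factor by which a library is scaled, and it was not tested under other scalings. Tcf7 made up 62.0% and 64.7% of the sum in Tw2_48, against 9.62% and 9.68% in Tw2_GM. In Pax7 cells it made up 35.5% and 40.8% in Pax7_48, against 16.2% and 14.5% in Pax7_GM. Lef1 made up 13.4% in both Tw2_48 libraries, against 33.9% and 37.4% in Tw2_GM, and 11.1% and 6.63% in Pax7_48, against 30.2% and 33.3% in Pax7_GM. The share of Tcf7 was therefore higher and that of Lef1 lower at 48 in every library of both lineages, although the CPM of Tcf7 itself was not higher in Pax7_48. The ratio of Tcf7 to Lef1 per kilobase was 4.63 and 4.84 in Tw2_48, against 0.284 and 0.259 in Tw2_GM, and 3.20 and 6.14 in Pax7_48, against 0.536 and 0.435 in Pax7_GM. Lef1 exceeded Tcf7 in every GM library and Tcf7 exceeded Lef1 in every 48 library.

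**Figure D4:**
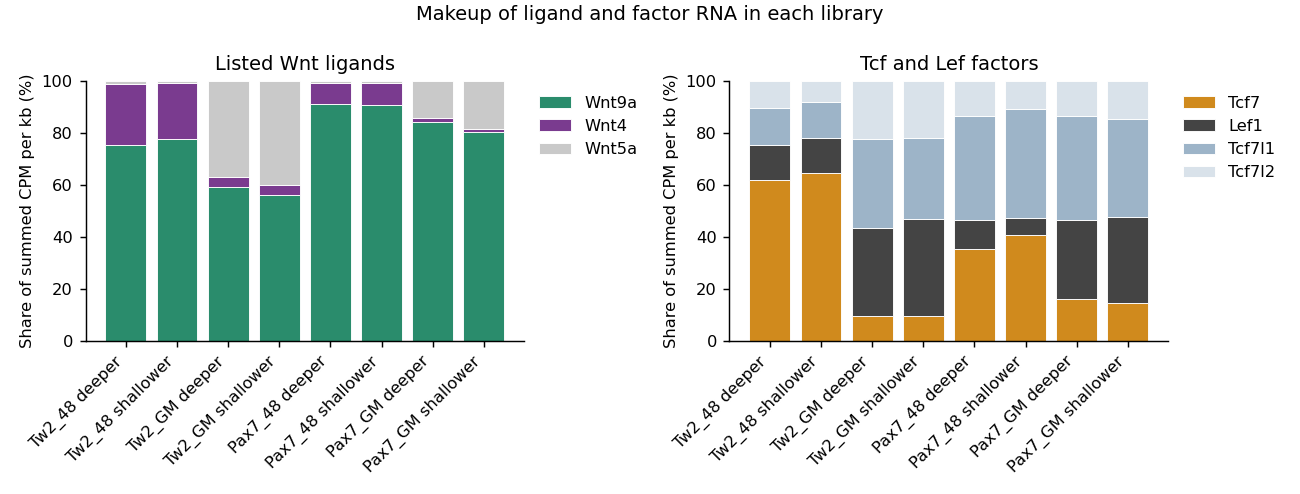
Percentage of the summed CPM per kilobase held by each Wnt ligand (Wnt4, Wnt5a, Wnt9a) and by each Tcf/Lef factor (Tcf7, Lef1, Tcf7l1, Tcf7l2) in the 8 libraries. Tcf7 holds 62.0% and 64.7% of the factor sum in Tw2_48, and Wnt5a holds under 1% of the ligand sum in the 48 libraries.

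The ligands changed in makeup as well. Wnt5a, a ligand mostly of the branch independent of beta-catenin, was the only other Wnt ligand analysed. Ligands under the floor, or with no deposited log2 change of at least 1, are not listed, so the shares below are among 3 genes only. Wnt5a was at 6.77 and 5.64 CPM in the Tw2_48 libraries, against 23.1 and 29.0 CPM in Tw2_GM. In Pax7 cells it was at 2.91 and 3.67 CPM in Pax7_48, against 24.9 and 33.4 CPM in Pax7_GM. It fell by 1.90 ± 0.19 in Tw2 cells (adjusted p = 2.42e-05, limma) and by 2.80 ± 0.19 in Pax7 cells (adjusted p = 3.07e-06, limma). Per kilobase, Wnt5a held 0.991% and 0.84% of the ligand sum in Tw2_48, against 36.9% and 39.9% in Tw2_GM, and 0.59% and 0.823% in Pax7_48, against 14.1% and 18.6% in Pax7_GM. Wnt4 held 23.8% and 21.7% in Tw2_48, against 3.73% and 4.07% in Tw2_GM, and 8.18% and 8.35% in Pax7_48, against 1.54% and 0.897% in Pax7_GM. Wnt9a held the rest, from 56.0% in the shallower Tw2_GM library to 91.2% in the deeper Pax7_48 library. The sum of the 3 ligands was 97.5 and 95.8 CPM per kilobase in Tw2_48, against 8.92 and 10.4 in Tw2_GM, and 70.4 and 63.5 in Pax7_48, against 25.2 and 25.6 in Pax7_GM.

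Among the other 42 Wnt pathway genes of the list that were analysed, 10 rose and 25 fell in Tw2_48 against Tw2_GM, which is 23.8% and 59.5%, beside 35.3% and 48.9% of all genes. In Pax7_48 against Pax7_GM 12 rose and 21 fell, or 28.6% and 50.0%, beside 38.8% and 40.5% of all genes. The median change was -0.98 in Tw2 cells and -0.55 in Pax7 cells, beside -0.49 and 0.01 over all genes. With other scalings 9 of the 10 and 22 of the 25 calls held in every case in Tw2 cells, and 11 of the 12 and 20 of the 21 in Pax7 cells. Porcn, the acyltransferase that adds the lipid Wnt proteins need for export, was at 69.1 and 63.6 CPM in the Tw2_48 libraries, against 8.30 and 6.37 CPM in Tw2_GM, and in Pax7 cells at 30.8 and 24.9 CPM in Pax7_48, against 10.6 and 8.87 CPM in Pax7_GM. It rose by 3.02 ± 0.17 in Tw2 cells (adjusted p = 7.3e-07, limma) and by 1.42 ± 0.17 in Pax7 cells (adjusted p = 9.08e-05, limma).

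Of 9 receptors and co-receptors, 2 rose in each lineage (22.2%), Fzd2 and Fzd9, both Frizzled receptors. In Tw2 cells 6 fell (66.7%) and in Pax7 cells 5 (55.6%). Of all genes, 35.3% rose and 48.9% fell in Tw2 cells, and 38.8% rose and 40.5% fell in Pax7 cells. Fzd9 was at 65.2 and 65.1 CPM in the Tw2_48 libraries, against 1.31 and 1.15 CPM in Tw2_GM, and in Pax7 cells at 53.6 and 49.0 CPM in Pax7_48, against 3.39 and 3.09 CPM in Pax7_GM. Its change was 4.89 ± 0.13 in Tw2 cells (adjusted p = 1.55e-08, limma) and 3.62 ± 0.13 in Pax7 cells (adjusted p = 2.02e-07, limma). Lgr6, a receptor for the R-spondins that strengthen Wnt signals, was at 2.26 and 2.55 CPM in the Tw2_48 libraries, against 223 and 236 CPM in Tw2_GM, and in Pax7 cells at 3.76 and 3.01 CPM in Pax7_48, against 207 and 203 CPM in Pax7_GM. Apcdd1, a membrane inhibitor that binds Wnt proteins and their co-receptors, fell by 3.27 ± 0.20 in Tw2 cells (adjusted p = 9.57e-07, limma) and by 2.70 ± 0.20 in Pax7 cells (adjusted p = 4.23e-06, limma). The 48 cultures, where Wnt4 and Wnt9a were high, were thus high in Porcn and Fzd9 and low in Lgr6 and Apcdd1. For Wnt4, Fzd9, Lgr6 and Apcdd1, which passed the floor through a single culture, such a difference was a condition of being listed.

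Of 13 genes of the cytoplasmic relay, 4 rose and 5 fell in Tw2 cells (30.8% and 38.5%, beside 35.3% and 48.9% of all genes). In Pax7 cells 5 rose and 3 fell (38.5% and 23.1%, beside 38.8% and 40.5% of all genes). Ctnnb1, which encodes beta-catenin, fell by 0.72 ± 0.15 in Tw2 cells (adjusted p = 0.00172, limma) and by 0.63 ± 0.15 in Pax7 cells (adjusted p = 0.00403, limma), calls that other scalings did not all keep. Of 7 other nuclear factors 2 rose and 4 fell in each lineage (28.6% and 57.1%). The shares of all genes were 35.3% and 48.9% in Tw2 cells and 38.8% and 40.5% in Pax7 cells. Tcf7l1 was at 8.52 and 8.09 CPM in the Tw2_48 libraries, against 52.6 and 45.2 CPM in Tw2_GM, and in Pax7 cells at 16.3 and 18.1 CPM in Pax7_48, against 58.4 and 51.3 CPM in Pax7_GM. Like Lef1 and unlike Tcf7, it was lower at 48 in every library of both lineages.

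Of 8 common transcriptional targets that were counted under no other role, 7 fell and 1 rose in Tw2 cells and 6 fell and 1 rose in Pax7 cells. The shares that fell were 87.5% and 75.0%, beside 48.9% and 40.5% of all genes. The share that rose was 12.5% in each lineage, beside 35.3% and 38.8% of all genes. The gene that rose in both was Fst, which encodes follistatin, an antagonist of myostatin and activins, at 505 and 486 CPM in the Tw2_48 libraries, against 39.2 and 43.0 CPM in Tw2_GM, and in Pax7 cells at 128 and 88.2 CPM in Pax7_48, against 27.9 and 36.9 CPM in Pax7_GM. Ccnd1, which encodes cyclin D1 and drives entry into the cell cycle, was at 13.7 and 15.0 CPM in the Tw2_48 libraries, against 1237 and 1222 CPM in Tw2_GM, and in Pax7 cells at 79.95 and 72.4 CPM in Pax7_48, against 1488 and 1301 CPM in Pax7_GM. Many of these targets, Ccnd1 and Myc among them, are known to answer to other signals too. Fosl1 and Nrcam, also among the 8, passed the floor through the GM libraries alone. Porcn, Tcf7, Lef1 and Lgr6 are on the list of targets as well, but were counted under other roles. Of these, Porcn rose in both lineages, Tcf7 rose in Tw2 cells, and Lef1 and Lgr6 fell in both.

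**Figure D5:**
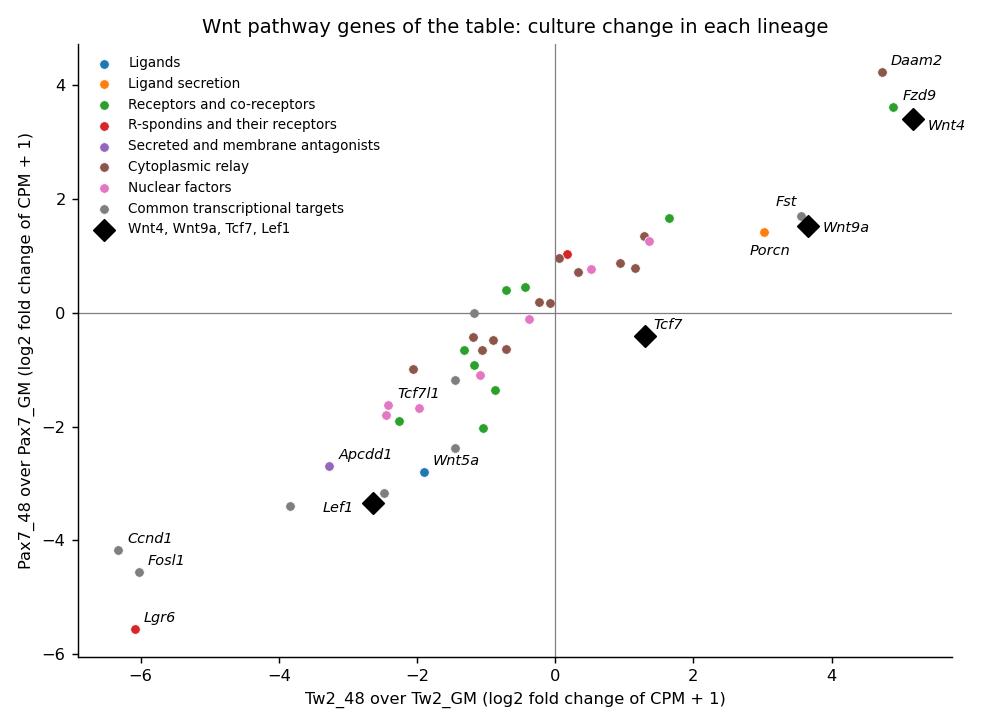
Culture change of the 46 Wnt pathway genes analysed, as log2 fold change of CPM + 1, in Tw2 cells on the horizontal and in Pax7 cells on the vertical axis; diamonds are the 4 members and colours give the role. Wnt4, Wnt9a, Porcn and Fzd9 lie at the upper right, Lef1, Lgr6 and Ccnd1 at the lower left, and Tcf7 lies in the lower right quadrant.

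The difference between the lineages in the culture change was called for 13 of the 42 other pathway genes, 5 of them higher in Tw2 cells (11.9%, beside 9.72% of all genes) and 8 lower (19.0%, beside 9.01%). These counts depended on the libraries: 20 genes were lower without the shallower Pax7_GM library and 14 without the deeper one, and 2 to 4 without any of the other 6, while the higher ones numbered 9 without the shallower Pax7_GM library and 3 without any of those 6. Porcn, at 1.598 ± 0.25 (adjusted p = 0.00392, limma), and Fst, at 1.87 ± 0.29 (adjusted p = 0.00403, limma), differed in the direction of the ligands. Ccnd1, at -2.15 ± 0.19 (adjusted p = 0.000333, limma), had the largest negative value. Between lineages, 22 of the 42 were higher and 6 lower in Tw2_GM than in Pax7_GM (52.4% and 14.3%, beside 48.7% and 26.0% of all genes). At 48, 22 were higher and 7 lower in Tw2_48 than in Pax7_48 (52.4% and 16.7%, beside 43.3% and 22.1% of all genes). Fewer were higher at 48 without the deeper Tw2_48 library or without the shallower Pax7_48 library. With size factors the counts were 12 higher and 24 lower in GM and 8 higher and 14 lower at 48, so no direction is given for the pathway between lineages.

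Likeness was measured as Pearson's r of log2(CPM + 1) over the 8 libraries, which share 4 group means, and is a description only. Nearest to Wnt4 were Gga2 (r = 0.999), Scrn1 (0.999) and Sept4 (0.999), the last at 90.4 CPM on average in Tw2_48, 0.427 CPM in Tw2_GM, 18.6 CPM in Pax7_48 and 0.136 CPM in Pax7_GM. Among the genes nearest to Wnt9a were Myl1 (0.997) and Med27 (0.996), and Myl1, a fast-muscle myosin light chain, averaged 2813 CPM in Tw2_48, 31.8 CPM in Tw2_GM, 2787 CPM in Pax7_48 and 326 CPM in Pax7_GM. Nearest to Lef1 were Stard3nl (0.998), Tpm3 (0.997) and Cd44 (0.997). Genes with r of at least 0.95 numbered 373 for Wnt4, 415 for Wnt9a and 634 for Lef1. Tcf7 had 1, Anks1 (0.959), followed by Hsd17b4 (0.936) and Paqr4 (0.919). Among the members, r was 0.85 between the ligands, -0.85 between Wnt4 and Lef1, -0.87 between Wnt9a and Lef1, and -0.28 between Tcf7 and Lef1.

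Markers of other states moved with these results, and their part in them was not tested. Of the differentiated muscle list, 4 of 8 genes could be summed (Myog, Ckm, Tnnt3 and Actn2), at 8500 to 8600 CPM in the Tw2_48 libraries, against 153.8 to 183.9 CPM in Tw2_GM, and in Pax7 cells at 6358 to 6540 CPM in Pax7_48, against 649.8 to 775.3 CPM in Pax7_GM. All 4 were higher at 48 in both lineages and lower in Tw2_GM than in Pax7_GM, the order that Wnt9a also had. Of the satellite cell and myoblast list, 6 of 9 genes (Pax7, Cdh15, Itga7, Vcam1, Sdc4 and Des) summed to 5470 to 5531 CPM in the Tw2_48 libraries, against 2347 to 2385 CPM in Tw2_GM, and to 7878 to 8444 CPM in Pax7_48, against 2779 to 3318 CPM in Pax7_GM. In each lineage 3 of these were higher at 48, Des, Cdh15 and Itga7, which carry the sum, and 3 were lower, Pax7, Vcam1 and Sdc4, with log2 changes of -3.02, -4.33 and -3.08 in Tw2 cells and -3.42, -3.18 and -2.02 in Pax7 cells. Of the list of fibro-adipogenic progenitors and fibroblasts, 5 of 10 genes summed to 210.7 to 247.7 CPM in the Tw2_48 libraries, against 981.8 to 1035 CPM in Tw2_GM, and to 407.6 to 436.5 CPM in Pax7_48, against 937.8 to 949.0 CPM in Pax7_GM. In Tw2 cells most of that sum was Col3a1, and Col1a2 went the other way at 48, with a log2 change of 1.66. In GM, where the sums were close, 2 of these 5 genes were called lower and 2 higher in Tw2_GM than in Pax7_GM, beside 26.0% and 48.7% of all genes. Col1a2 had only 3.61 and 3.28 CPM in the Tw2_GM libraries, against 424 and 387 CPM in Pax7_GM. Prrx1 was lower in Tw2_GM at a log2 change of -3.01, but a lineage difference was a condition of its being listed. Col3a1 and Tcf7l2 were higher in Tw2_GM, at log2 changes of 1.035 and 0.721. The pericyte and smooth muscle list had 3 of 6 genes, at 8250 to 8639 CPM in the Tw2_48 libraries, against 658.6 to 697.3 CPM in Tw2_GM, and in Pax7 cells at 5150 to 5434 CPM in Pax7_48, against 703.0 to 807.6 CPM in Pax7_GM. Nearly all of that sum was Acta2, which was higher at 48, whereas the pericyte genes Rgs5 and Cspg4 were lower, with log2 changes of -5.47 and -1.70 in Tw2 cells and -3.97 and -1.05 in Pax7 cells. The immune list had 1 of 5, Itgam, which was at 18.1 to 22.8 CPM in Tw2_48, 0 CPM in Tw2_GM, 11.9 to 15.9 CPM in Pax7_48 and 0.542 to 0.579 CPM in Pax7_GM, and the tenocyte list 1 of 3, Scx, at 218.7 to 258.6 CPM in Tw2_48, 27.5 to 32.1 CPM in Tw2_GM, 319.6 to 347.9 CPM in Pax7_48 and 91.45 to 110.1 CPM in Pax7_GM.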

How the data were processed

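RNA of 8 libraries was measured in 4 groups of 2, assigned from the titles. The authors deposited 1 table of group mean CPM values for 5457 genes, with log2 fold changes against Tw2_GM that equal log2((mean + 1)/(Tw2_GM mean + 1)) to within 1.4e-11, and a status column that is 1 throughout. Per the submitters' processing notes, GRCm38 (mm10), TopHat2 2.0.0 and DESeq2 1.6.3 were used, with no roles given; the counting tool, annotation and strand handling are not given in the sources used here. The table holds only genes with an absolute deposited log2 change of at least 1 in at least 1 comparison, and those solved were at 10 CPM or more in at least 4 libraries, so calls are frequent in it.

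Each mean CPM equals whole reads of 2 libraries times 2 steps, and pairs of reads within 1.1 times the rounding error were sought. For 5452 genes the answer was unique in all groups, and the exceptions (Acta1, Actc1, H19, Myh3 and Mylpf) were not tested. The libraries are called deeper and shallower because means carry no replicate numbers, and their implied sizes may include a scaling factor. The reads are inferred, so the test was not a count test: limma 3.58.1 (R 4.3.3, eBayes without trend, 4 residual and 4.02 prior degrees of freedom) was run on log2(CPM + 1) over all 8 libraries with Benjamini-Hochberg adjustment over 5452 genes, called under 0.05. The pseudocount of 1 shrinks log2 changes of genes near 1 CPM, as with Wnt4 in GM. Solver and test were tested on simulated data. Poisson intervals and the limit of 3 reads cover counting error only. Levels per kilobase used the longest principal transcript of GENCODE vM21 (GRCm38), which 5436 genes matched (99.6%); promoters are from RefSeq.

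The members and the lists of pathway and marker genes were chosen with earlier results of these data known. Named genes are the members, pathway genes of the list (131 genes, 46 of them analysed), markers, and the 3 genes most like each member, of which 1 is not reported here. Alternatives were another pseudocount, a filter at a mean of 10 CPM, size factors, quantile normalization, voom, a trended variance, removal of a GC and length trend, and omission of each library.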

Additional observations from a re-analysis of the deposited data

Results flagged for a closer look

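The culture change (48 over GM) differed between Tw2 and Pax7 cells, by a test of the difference itself (limma, adjusted p under 0.05 over all genes), for 3 of the 4 members, beside 18.7% of all genes (1021 genes, and 449 to 3153 with 1 library left out). It was larger in Tw2 cells by 2.14 on the log2 scale for Wnt9a, by 1.76 for Wnt4 and by 1.70 for Tcf7. Tcf7 was listed through its rise in Tw2 cells alone, which favoured this difference. For Wnt9a the gap lay in the growth medium, where Tw2 cells were at 17.6 and 19.3 CPM against 70.6 and 68.5 CPM in Pax7 cells. For Wnt4 it lay at 48, where Tw2 cells were at 97.3 and 87.2 CPM against 24.1 and 22.3 CPM in Pax7 cells. Tcf7 was higher in Tw2_48 than in Tw2_GM by 1.29, while its change in Pax7 cells, -0.41, lost its call under 3 of 7 other settings and without any one of 6 of the 8 libraries. Differentiated muscle genes (Myog, Ckm, Tnnt3, Actn2) also had a larger change in Tw2 cells, 4 of 4 by the same test, and their part was not tested.

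Among other pathway genes the same test passed with a higher value in Tw2 cells for Fst (1.87), Porcn (1.598), Fzd9 (1.27), the planar polarity receptor Ptk7 (0.97) and the adhesion receptor Cd44 (0.70). It passed with a lower value for Ccnd1 (-2.15), Fosl1 (-1.47), Wisp1 (-1.17), Fzd3 (-1.11), the beta-catenin inhibitor Ctnnbip1 (-1.07), the R-spondin receptor Lgr4 (-0.87), Tcf7l1 (-0.80) and the planar polarity gene Vangl1 (-0.67). Under every other scaling 4 of the 5 higher and 4 of the 8 lower calls held; Fzd9, Fzd3, Lgr4, Tcf7l1 and Vangl1 did not.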

How the results depend on the processing

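The 20 member results (4 genes, 5 comparisons) were repeated under 7 other settings and the omission of each of the 8 libraries. Under the other settings 5 cases reversed, whatever their call, and of the rest 7 gained and 5 lost a call. Under the omissions 1 reversed, and of the rest 6 gained and 7 lost a call. The results kept direction and call in 123 cases under the other settings and in 146 under the omissions. The culture changes of Wnt4, Wnt9a and Lef1, that of Tcf7 in Tw2 cells, and the lineage differences in culture change of Wnt9a and Tcf7 did so throughout. With size factors, the Tw2_GM against Pax7_GM values were -0.31 for Wnt4 and -0.60 for Lef1 (called), the Tw2_48 against Pax7_48 values -0.38 for Wnt9a (called) and 0.41 for Lef1 (not called), the Tcf7 change in Pax7 cells -0.18 (not called) and the Lef1 difference of changes 1.01 (called). With quantile normalization, Wnt4 in GM was 0.81 (called), Lef1 in GM -0.37, Tcf7 in Pax7 cells -0.16 (not called), the Wnt4 difference 0.68 (not called) and the Lef1 difference 1.25 (called). With the GC and length trend removed, Wnt4 in GM was 0.87, Lef1 in GM 0.75 and Wnt9a at 48 0.75, all called, Tcf7 in GM was 0.20 and Tcf7 in Pax7 cells -0.27, both not called, and 1833 genes were called for the difference of changes in place of 1021. With voom, Wnt9a at 48 was 0.28 and called. Leaving out each library in turn gave -0.0272 to 0.39 for Wnt4 in GM, 0.20 to 0.35 for Wnt9a at 48, -0.66 to -0.42 for Tcf7 in GM, -0.54 to -0.28 for Tcf7 in Pax7 cells and 0.44 to 0.97 for the Lef1 difference; the genes called ranged from 2152 to 4218 for Tw2_48 against Pax7_48 and from 449 to 3153 for the difference of changes. The causes were not tested. Among other pathway genes, quantile normalization gave 11 lower in GM and 14 higher at 48, and for the difference of changes 4 were lower with size factors and 16 with the GC and length trend removed. No paired analysis was possible because the deposited means carry no replicate numbers. The planned edgeR alternatives (TMM, quasi-likelihood test) were not run, since the table holds no counts; median-of-ratios size factors and voom took their place and were chosen after seeing the data. Depth limits Wnt4 in GM most, with 5 to 20 reads per library, followed by Lef1 in Pax7_48 with 55 and 25.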
